A study of Homo sapiens with 18 samples.

Results

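The comparison set 3 arrays labelled shLATS1+2 with control cDNA against 3 arrays labelled shLATS1B with control cDNA, chosen by their titles: 6 of the 18 arrays of the series. Both groups were MCF10A, an established, non-tumorigenic line of human breast epithelium. One group carried lentivirus against LATS1 and the other lentivirus described by the submitters as targeting both LATS1 and LATS2. Both had been infected at an MOI of 5, held in puromycin at 1.5 µg/ml for 4 days, allowed to recover for 7 days or longer and transfected with the control cDNA by Lipofectamine. RNA was taken after 5 days in M5, a medium that contains estrogen, and 100 ng of it entered the labelling for a whole-transcript Affymetrix array. The 12 other arrays carried a non-targeting hairpin (shNT) with a control, YAP/TAZ, ESR1 or combined YAP/TAZ and ESR1 cDNA. The labels do not say whether the LATS1 hairpin was the same in both knockdowns, nor whether a group's 3 arrays stem from separate cultures. The p-values therefore reflect only the spread among arrays within groups, estimated from all 18 arrays together.

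LATS1 and LATS2 are closely related kinases at the end of the Hippo cascade. They phosphorylate the co-activators YAP and TAZ, which then stay in the cytoplasm or are degraded; without that phosphorylation YAP and TAZ enter the nucleus and act mainly with TEAD factors on genes of growth, matrix and cytoskeleton. The kinases can stand in for each other at many substrates, so the question of the comparison is what the second kinase's hairpin adds to the first. In mammary epithelium the pathway has been studied for its part in luminal and basal identity.

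All values are log2 intensities as deposited, and a difference is the mean of the arrays labelled shLATS1+2 minus the mean of those labelled shLATS1B, so that 1 unit is a doubling. The 6 array profiles were close to each other: r across all 32321 probe sets was 0.998 to 0.9983 among the shLATS1B arrays, 0.9954 to 0.9981 among the arrays labelled shLATS1+2 and 0.9931 to 0.998 between the groups. The third array labelled shLATS1+2 stood apart from the other 5. Its mean absolute distance from its group mean was 0.0794 against 0.0415 to 0.0561 in the others, and on the first principal component of the 6 arrays, which held 61.8% of the variance, it scored 20.8 against 1.11 and 2.13 for its own group and −9.85 to −5.28 for shLATS1B. For the genes that the text names by rule, it is stated where leaving that array out ended a call or moved the value by over 1.5 times. Other genes were not followed in this way. The array furthest from its own group in the whole series was the first with ESR1 cDNA, at 0.111.

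LATS1 was low in both knockdowns to a like extent. LATS1 (probe set 8130116) read 7.81, 7.61 and 7.57 in the 3 shLATS1B arrays and 7.67, 7.76 and 7.85 in the 3 arrays labelled shLATS1+2, against 8.96, 8.80 and 8.81 with shNT and control cDNA. The knockdown groups overlapped, and both lay below every shNT array with control cDNA. Between the knockdowns LATS1 differed by 0.10 ± 0.078 (SE, n = 3 and 3; 95% interval −0.07 to 0.27; limma adjusted p = 0.60), and by 0.055 without the third array labelled shLATS1+2; with single arrays left out it ranged from 0.053 to 0.17. Against shNT it was lower by −1.19 with shLATS1B (adjusted p = 6.1e-09) and by −1.10 with shLATS1+2 (adjusted p = 1.8e-08).

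LATS2, the gene that separates the labels, did not differ detectably. LATS2 (probe set 7970498) read 7.88, 7.86 and 7.87 with shLATS1B, 7.84, 7.90 and 7.72 in the arrays labelled shLATS1+2, and 7.84, 7.63 and 7.72 with shNT. The 3 groups overlapped, and the highest single value among the labelled double knockdown was above all 3 shLATS1B arrays. The difference between the knockdowns was −0.05 ± 0.063 (95% interval −0.18 to 0.09; limma adjusted p = 0.79), and without the third array labelled shLATS1+2 it was 0.0018. The interval allows a fall of at most 0.18 on the log2 scale, so the LATS2 RNA seen by this probe set goes against the label. Against shNT the arrays labelled shLATS1+2 stood at 0.09 (adjusted p = 0.37) and the shLATS1B arrays at 0.14 (adjusted p = 0.14; 0.19 and adjusted p = 0.048 without the first shNT array). Which stretch of the LATS2 transcript the probe set reads, and LATS2 protein, were not analysed here, and each direction below is that of the labelled groups.

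**Figure D1:**
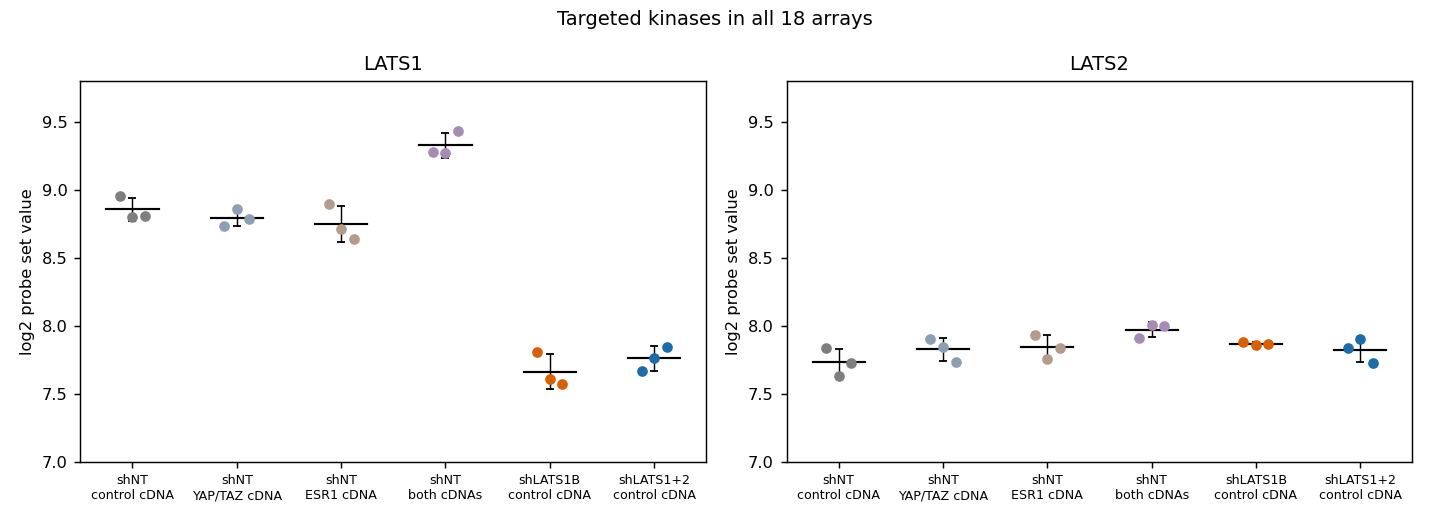
LATS1 and LATS2 in all 18 arrays (log2 intensity, y axis) by hairpin and cDNA group; points are arrays, long lines group means and bars 1 SD (n = 3). LATS1 is lower in all 6 knockdown arrays than in the other 12, while LATS2 overlaps among the shNT, shLATS1B and shLATS1+2 arrays with control cDNA.

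None of YAP1, WWTR1 and ESR1 passed at a limma adjusted p under 0.05. YAP1 read 10.86, 10.97 and 10.91 with shLATS1B and 10.86, 10.85 and 10.73 in the arrays labelled shLATS1+2, a difference of −0.10 (limma adjusted p = 0.57; −0.059 without the third array labelled shLATS1+2). WWTR1, which encodes TAZ, read 10.03, 10.02 and 9.97 against 9.85, 9.85 and 9.71; the groups did not overlap, but the difference of −0.20 (95% interval −0.39 to −0.02) had an adjusted p of 0.41. ESR1, which encodes estrogen receptor alpha, read 6.47, 6.39 and 6.25 against 6.35, 6.46 and 6.39, with the groups overlapping and a difference of 0.03 (adjusted p = 0.91).

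Few genes separated the labelled groups. Of 18404 genes, 59 passed at an adjusted p under 0.05, or 0.321%: 26 higher (0.141%) and 33 lower (0.179%) in the arrays labelled shLATS1+2. All 59 had groups that did not overlap, as did 4634 of all genes (25.2%), and 2136 genes had an unadjusted p under 0.05. Absolute differences of the 59 ran from 0.20 to 1.52 with a median of 0.49. Past 1.5-fold there were 20 called genes, 14 higher and 6 lower, and past 2-fold there were 4. For 17866 genes (97.1%) the 95% interval of the difference lay inside a 1.5-fold change in either direction, so larger differences lay outside the interval of most genes. Leaving out single arrays moved the count most: it was 33 without the second and 35 without the third shLATS1B array, 37 without the third array labelled shLATS1+2, and 110 without the first ESR1 cDNA array, which enters only the estimate of the spread.

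**Figure D2:**
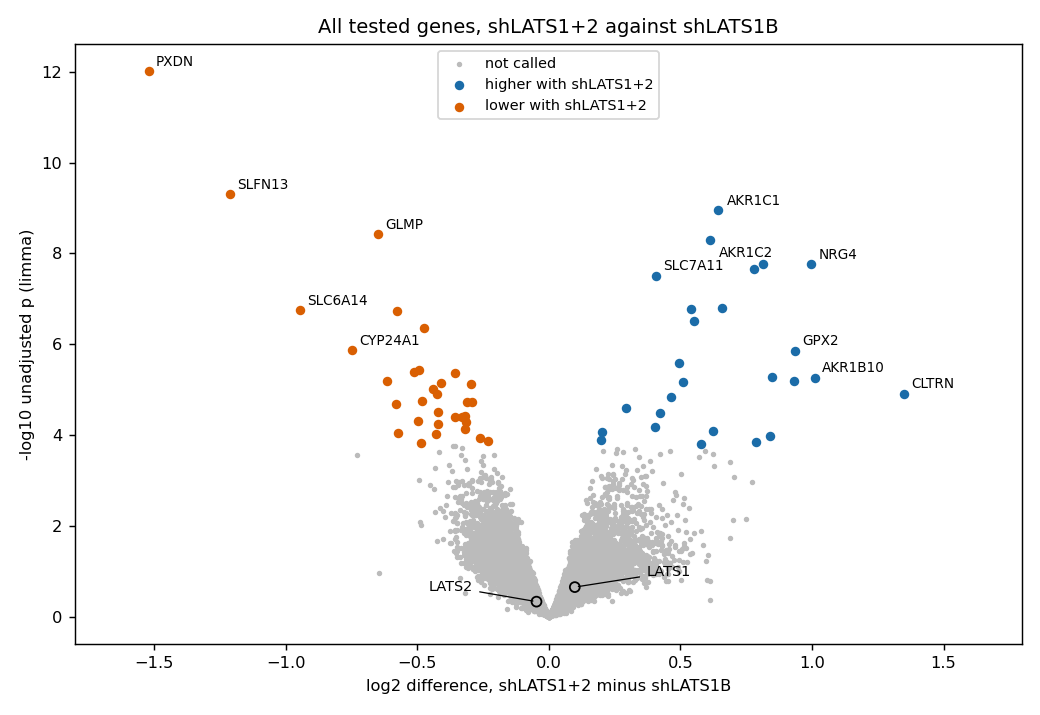
Difference of the arrays labelled shLATS1+2 from shLATS1B (log2, x axis) against −log10 of limma's unadjusted p (y axis) for all 18404 genes; blue and orange points are the 26 higher and 33 lower called genes, and rings mark LATS1 and LATS2. PXDN and SLFN13 stand furthest to the left, and CLTRN furthest to the right.

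For scale, the same fit called 4415 genes (24%) between shLATS1B and shNT and 4564 (24.8%) between shLATS1+2 and shNT. These comparisons share the 3 shNT arrays and give no independent views of each other. On the first principal component of all 18 arrays, which held 47.3% of the variance, the shLATS1B arrays scored 16.3 to 18.2 and those labelled shLATS1+2 9.83 to 15, while shNT arrays with control cDNA scored −23 to −18.1. The arrays with both cDNAs, which carry shNT, scored 17.8 to 22.7. The part of this division in the values against shNT was not tested; the 6 arrays of the main comparison lie on the same side of it.

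Of the gene lists, the one of enzymes that handle aldehydes, steroids and peroxides held the most genes that rose. NRF2 is a transcription factor held in check by KEAP1, and under oxidative or electrophilic stress it turns on genes of glutathione, thioredoxin and aldo-keto reductase metabolism through antioxidant response elements. Of 18 measured genes on a list of NRF2 targets and xenobiotic enzymes, 5 rose (GPX2, AKR1B10, AKR1C1, AKR1C2 and AKR1C3) and 1 fell (CYP24A1, a vitamin D-degrading enzyme that is no classical NRF2 target), where 0.141% of all genes rose and 0.179% fell. The list was written with earlier results of these data known, so the count of its calls is not independent of them. The list's median difference was 0.11 against −0.0093 over all genes tested, and 14 of the 18 genes were above 0, as were 45.4% of all genes. Sequence just before the start of 3 of them is shown for context, together with that of PXDN, the gene with the largest fall; each run is the 250 bases before the RefSeq start on build GRCh38.p14, 5′ to 3′ on the gene's own strand.
GPX2, chr14:64942746-64942995, minus strand: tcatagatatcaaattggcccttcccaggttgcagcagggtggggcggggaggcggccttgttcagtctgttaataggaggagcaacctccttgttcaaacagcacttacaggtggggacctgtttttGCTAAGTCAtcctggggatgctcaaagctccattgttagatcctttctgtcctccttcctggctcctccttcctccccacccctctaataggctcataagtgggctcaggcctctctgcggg
AKR1C1, chr10:4963165-4963414, plus strand: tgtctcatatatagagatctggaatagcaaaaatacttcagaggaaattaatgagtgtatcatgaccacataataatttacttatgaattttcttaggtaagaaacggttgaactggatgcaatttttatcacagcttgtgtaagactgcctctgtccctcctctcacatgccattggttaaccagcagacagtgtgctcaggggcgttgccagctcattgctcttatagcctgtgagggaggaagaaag
AKR1C2, chr10:5003858-5004107, minus strand: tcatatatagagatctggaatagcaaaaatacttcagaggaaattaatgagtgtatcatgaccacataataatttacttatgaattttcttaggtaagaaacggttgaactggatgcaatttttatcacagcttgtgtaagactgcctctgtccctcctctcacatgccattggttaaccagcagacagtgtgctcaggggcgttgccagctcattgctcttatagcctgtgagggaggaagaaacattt
PXDN, chr2:1744516-1744765, minus strand: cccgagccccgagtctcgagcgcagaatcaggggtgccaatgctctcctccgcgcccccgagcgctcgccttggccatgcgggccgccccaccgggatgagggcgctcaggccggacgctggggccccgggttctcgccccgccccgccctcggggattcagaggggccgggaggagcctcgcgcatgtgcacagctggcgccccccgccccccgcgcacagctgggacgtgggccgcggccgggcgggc
The capitals in the GPX2 run mark a match to the antioxidant response element core TGACNNNGC, read on the opposite strand, whose first base is 122 bases before the start. The AKR1C1 and AKR1C2 runs were 96.5% identical over 254 aligned columns, against 37.5% for AKR1C1 and GPX2, and neither held the core. Of the 5 genes of this list that rose, the core was found only for GPX2 in the window of 250 bases before to 50 after the start. Among all called genes 10 held the core there, and 5 of them rose. These are matches of letters and not shown binding sites.

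GPX2, a glutathione peroxidase of epithelia that reduces hydrogen peroxide and lipid hydroperoxides, read 6.24, 6.17 and 5.97 with shLATS1B and 7.24, 7.08 and 6.87 in the arrays labelled shLATS1+2. Every labelled double knockdown array was above every shLATS1B array. GPX2 rose by 0.93 ± 0.125 (1.91-fold; limma adjusted p = 0.0015). The shNT arrays, at 5.98, 6.02 and 5.81, lay near shLATS1B, whose difference from shNT was 0.19 (adjusted p = 0.34), while shLATS1+2 stood 1.12 above shNT.

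AKR1B10, a reductase of retinal and other aldehydes, read 5.99, 6.14 and 5.81 with shLATS1B and 7.43, 6.66 and 6.89 in the arrays labelled shLATS1+2. The first of the latter was highest and the groups did not overlap. The rise was 1.01 ± 0.152 (2.02-fold; limma adjusted p = 0.0043), and its call was lost in fits of only the 6 or the 9 control-cDNA arrays (largest adjusted p 0.0723). With shNT it read 6.28, 6.05 and 5.74, so that shLATS1B did not differ detectably from shNT (−0.04, adjusted p = 0.90) and shLATS1+2 stood 0.97 above it.

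The aldo-keto reductases of the 1C subfamily, which reduce steroid and prostaglandin ketones, were bright in every array. AKR1C1 (probe set 8180376) read 11.20, 11.30 and 11.29 with shLATS1B and 11.91, 11.85 and 11.96 in the arrays labelled shLATS1+2, a rise of 0.64 ± 0.051 (1.56-fold; limma adjusted p = 6.8e-06). AKR1C2 read 11.68, 11.67 and 11.61 against 12.29, 12.25 and 12.24, a rise of 0.61 ± 0.054 (adjusted p = 1.9e-05). Both separated the groups by more than the range within either. The shNT arrays lay between, at 11.54, 11.52 and 11.57 for AKR1C1 and at 11.79, 11.88 and 11.89 for AKR1C2. AKR1C3 read 10.58, 10.58 and 10.56 against 11.15, 11.07 and 11.38, a rise of 0.63 ± 0.119 (adjusted p = 0.030) that was 0.54 with an adjusted p of 0.19 without the third array labelled shLATS1+2; its call was also lost without any 1 of the 3 shLATS1B arrays or the first labelled shLATS1+2. The subfamily shares long near-identical stretches, so probe sets can read more than 1 member and the 3 rises are not 3 independent results. A second, dimmer AKR1C1 probe set (7925918) read 5.95, 5.85 and 6.09 against 5.96, 6.03 and 6.17, a difference of 0.09 ± 0.111 (adjusted p = 0.80 over all probe sets). With the mean of both probe sets in place of the brighter one, AKR1C1 rose by 0.37 (adjusted p = 0.017).

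The other classical members of the list moved less. TXNRD1, thioredoxin reductase, differed by 0.19 (limma adjusted p = 0.33), NQO1, a quinone reductase, by 0.16 (0.16), SRXN1, sulfiredoxin, by 0.14 (0.34) and HMOX1, haem oxygenase, by 0.04. GCLM and GCLC, the subunits of the enzyme that starts glutathione synthesis, differed by 0.13 and −0.04, and GSTM3 by 0.00041. For 12 of the 18 members the 95% interval lay inside a 1.5-fold change. NFE2L2, which encodes NRF2, read 10.32, 10.42 and 10.33 against 10.33, 10.27 and 10.18 (−0.09, adjusted p = 0.54), and KEAP1 8.45, 8.46 and 8.50 against 8.53, 8.51 and 8.37 (−0.0064, adjusted p = 0.99). Both genes overlapped between the groups.

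Further called genes outside that list have related roles, and except for GSTM4, SLC7A11 and NMRAL2P, which the naming rule took, were picked out after their values were seen. GSTM4, a glutathione transferase, read 7.05, 7.21 and 7.17 with shLATS1B and 7.92, 7.71 and 7.77 in the arrays labelled shLATS1+2, a rise of 0.66 ± 0.075 (1.58-fold; limma adjusted p = 0.00026) to about the shNT arrays at 7.71, 7.68 and 7.58. ABCC2, which exports glutathione conjugates, read 9.35, 9.40 and 9.36 against 9.93, 9.98 and 9.85 and rose by 0.55 ± 0.066 (adjusted p = 4.0e-04). SLC7A11, the cystine importer that feeds glutathione synthesis, read 9.28, 9.22 and 9.29 against 9.71, 9.68 and 9.63 and rose by 0.41 ± 0.041 (limma adjusted p = 6.3e-05). It was the 1 called gene of 22 on the unfolded protein and amino acid stress list, against 0.321% of all genes. In all 3 genes the groups were clearly apart. The shNT arrays were below both knockdowns for ABCC2, at 8.99, 9.01 and 8.94, and above both for SLC7A11, at 10.11, 10.06 and 10.04. FTL, the ferritin light chain, read 10.63, 10.66 and 10.68 against 10.86, 10.85 and 10.87, a rise of 0.20 (adjusted p = 0.032). NMRAL2P, a pseudogene, read 5.76, 5.53 and 5.60 against 6.27, 6.33 and 6.65 (0.79 ± 0.158, adjusted p = 0.046), and its call was lost in 17 of 27 alternatives, among them without the third array labelled shLATS1+2 (0.67, adjusted p = 0.29).

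**Figure D3:**
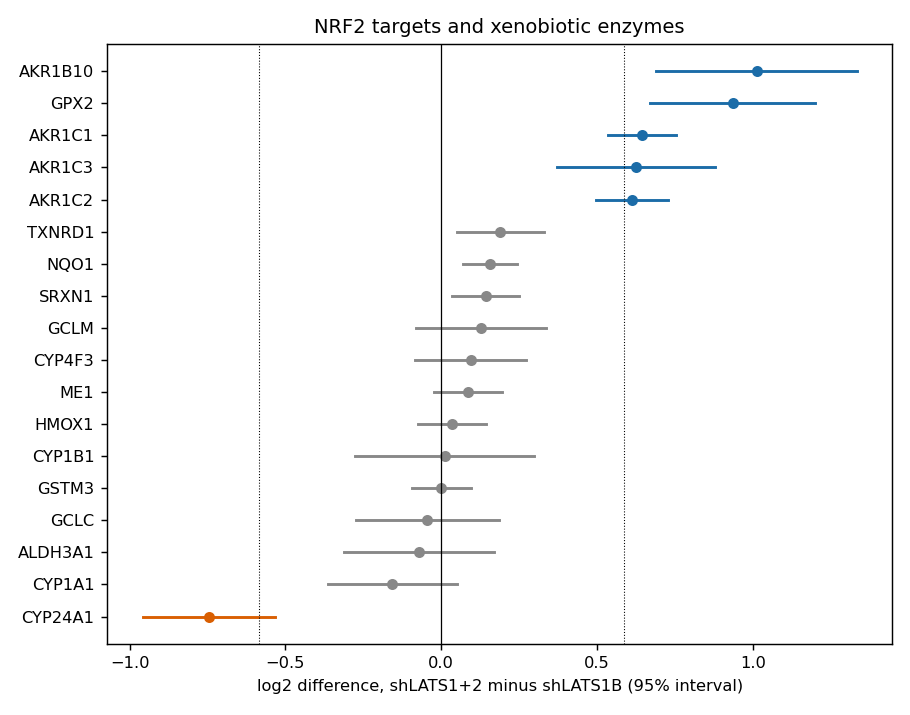
Difference of the arrays labelled shLATS1+2 from shLATS1B (log2, x axis) with its 95% interval for the 18 measured genes of the NRF2 and xenobiotic enzyme list; blue and orange are called higher and lower, grey is not called, and dotted lines mark 1.5-fold. The 5 blue genes are apart from the 12 grey ones, and CYP24A1 is the 1 orange gene.

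PXDN fell furthest of all genes. PXDN encodes peroxidasin, a secreted haem peroxidase that crosslinks collagen IV in basement membranes. It read 8.10, 8.27 and 8.31 with shLATS1B and 6.85, 6.73 and 6.55 in the arrays labelled shLATS1+2. The 2 groups were more than 1 log2 unit apart at their nearest arrays. The difference was −1.52 ± 0.076 (2.87-fold lower; limma adjusted p = 1.8e-08). The shNT arrays, at 7.04, 6.91 and 6.85, lay with the labelled double knockdown: shLATS1B stood 1.29 above shNT, and shLATS1+2 stood at −0.23 (adjusted p = 0.037). PXDN fell under every alternative, between −1.59 and −1.44.

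SLFN13, a schlafen family ribonuclease that cleaves transfer RNA, was second. It read 8.11, 8.07 and 8.13 with shLATS1B, 6.98, 6.95 and 6.75 in the arrays labelled shLATS1+2 and 7.70, 7.69 and 7.62 with shNT. Here shNT lay between the knockdowns, with shLATS1B 0.43 above it and shLATS1+2 at −0.78. The difference between the knockdowns was −1.21 ± 0.091 (2.31-fold lower; limma adjusted p = 4.5e-06).

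Several of the other falls were in genes whose shLATS1B level was far above shNT. SLC6A14, an importer of neutral and cationic amino acids, read 6.97, 7.26 and 7.11 with shLATS1B, 6.25, 6.30 and 5.95 in the arrays labelled shLATS1+2 and 5.07, 4.99 and 5.16 with shNT. It was the 1 called gene of 22 ion channels and transporters, against 0.321% of all genes. It fell by 0.95 ± 0.108 between the knockdowns (1.93-fold; limma adjusted p = 0.00026). CYP24A1, which breaks down active vitamin D, read 8.94, 9.05 and 9.41 against 8.28, 8.37 and 8.51, a fall by 0.75 ± 0.100 (adjusted p = 0.0015) whose call was lost in the fit of the 6 arrays alone (adjusted p = 0.0536). The shNT arrays, at 4.81, 5.07 and 5.00, lay under the 30th percentile of mean gene brightness (5.208), where low signal compresses differences; shLATS1B stood 4.17 and shLATS1+2 3.43 above them. For both genes all 3 arrays of each group kept the order shLATS1B, shLATS1+2, shNT.

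GLMP, a glycosylated lysosomal membrane protein, read 9.33, 9.24 and 9.09 with shLATS1B, 8.57, 8.55 and 8.58 in the arrays labelled shLATS1+2 and 8.36, 8.36 and 8.28 with shNT. It fell by 0.65 ± 0.056 (1.57-fold; limma adjusted p = 1.7e-05). NIPAL4, a keratinocyte magnesium transporter, read 8.16, 8.05 and 8.21 against 7.55, 7.61 and 7.41, and fell by 0.61 (adjusted p = 0.0048). GMPR, which converts GMP to IMP in purine recycling, read 7.13, 7.10 and 6.94 against 6.58, 6.55 and 6.56 and fell by 0.49 (adjusted p = 0.0037). None of these groups overlapped, and each call held without any 1 of the 6 arrays.

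The smaller falls among the named genes had varied roles. CORO1A, an actin-binding coronin known from leukocytes, read 8.60, 8.68 and 8.80 with shLATS1B against 8.11, 8.20 and 8.03 (−0.58, limma adjusted p = 0.011). SH3PXD2B, an adaptor of podosomes, read 7.42, 7.51 and 7.45 against 7.03, 6.85 and 6.78 (−0.57, adjusted p = 0.032), and CITED4, a co-activator that binds CBP and p300, read 8.36, 8.31 and 8.22 against 7.93, 7.81 and 7.68 (−0.50, adjusted p = 0.021). In all 3 the arrays of each group stayed apart, but the calls were lost without the third array labelled shLATS1+2, with adjusted p of 0.0758 for CORO1A, 0.19 for SH3PXD2B and 0.14 for CITED4, and also without the second or the third shLATS1B array; SH3PXD2B and CITED4 lost theirs without the first shLATS1B array or the second labelled shLATS1+2 too. IL2RG, the common cytokine receptor gamma chain, read 5.30, 5.59 and 5.49 against 4.95, 4.83 and 4.87 (−0.58, adjusted p = 0.00026). The arrays labelled shLATS1+2 were under the 5.208 brightness mark there, so that the difference may be understated.

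The largest rise was that of CLTRN, collectrin, a membrane protein that carries amino acid transporters to the cell surface. CLTRN read 6.72, 6.57 and 6.69 with shLATS1B, 7.74, 7.99 and 8.30 in the arrays labelled shLATS1+2 and 5.61, 5.81 and 5.81 with shNT. The arrays were in the order shNT, shLATS1B, shLATS1+2 with no overlap. The rise between the knockdowns was 1.35 ± 0.217 (2.55-fold; limma adjusted p = 0.0074), and its adjusted p was 0.055 at most with an array left out, above the threshold without the second shLATS1B or the third array labelled shLATS1+2 (1.21).

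A group of rises brought the labelled double knockdown level with shNT, because shLATS1B was below it. PCSK5, a protease that matures growth factors and matrix proteins, read 6.21, 5.98 and 6.23 with shLATS1B, 6.95, 7.01 and 6.90 in the arrays labelled shLATS1+2 and 6.93, 6.96 and 6.94 with shNT. It rose by 0.81 ± 0.079 (1.76-fold; limma adjusted p = 4.6e-05), while shLATS1+2 differed from shNT by 0.0088 (adjusted p = 0.96). TNIP3, an inhibitor of NF-kB signalling that binds A20, read 6.33, 6.13 and 6.30 against 6.90, 7.10 and 7.09, with shNT at 6.87, 7.16 and 7.07. It rose by 0.78 ± 0.076 (1.72-fold; adjusted p = 5.0e-05). For both genes the shLATS1B arrays were the low group and the other 2 groups overlapped. TLR4, the receptor for bacterial lipopolysaccharide, read 6.52, 6.99 and 6.88 against 7.61, 7.58 and 7.75, with shNT at 7.30, 7.66 and 7.64. It rose by 0.85 ± 0.127 (limma adjusted p = 0.0043). TLR4 was the 1 called gene of 24 NF-kB and acute phase genes, against 0.321% of all genes.

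NRG4, a ligand of the ERBB4 receptor, read 5.20, 5.32 and 5.40 with shLATS1B, 6.39, 6.27 and 6.25 in the arrays labelled shLATS1+2 and 5.97, 5.97 and 5.92 with shNT. shNT lay between the knockdowns, which differed by 1.00 ± 0.096 (1.99-fold; limma adjusted p = 4.6e-05). SRGN, the core protein of an intracellular proteoglycan, read 7.66, 7.69 and 7.76 against 8.32, 8.34 and 8.97 (0.84 ± 0.164, adjusted p = 0.036). The third array labelled shLATS1+2 was well above its group there, and without it the rise was 0.63 (adjusted p = 0.15); the call was lost in 13 of 27 alternatives. ZNF737, a zinc finger gene of a family with many near copies, read 4.14, 4.20 and 4.35 against 4.86, 5.43 and 5.19, with shNT at 4.71, 5.10 and 5.29. Its adjusted p was 0.0048, but both group means were under the brightness mark, so no fold is given and reads of its relatives could not be separated.

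**Figure D4:**
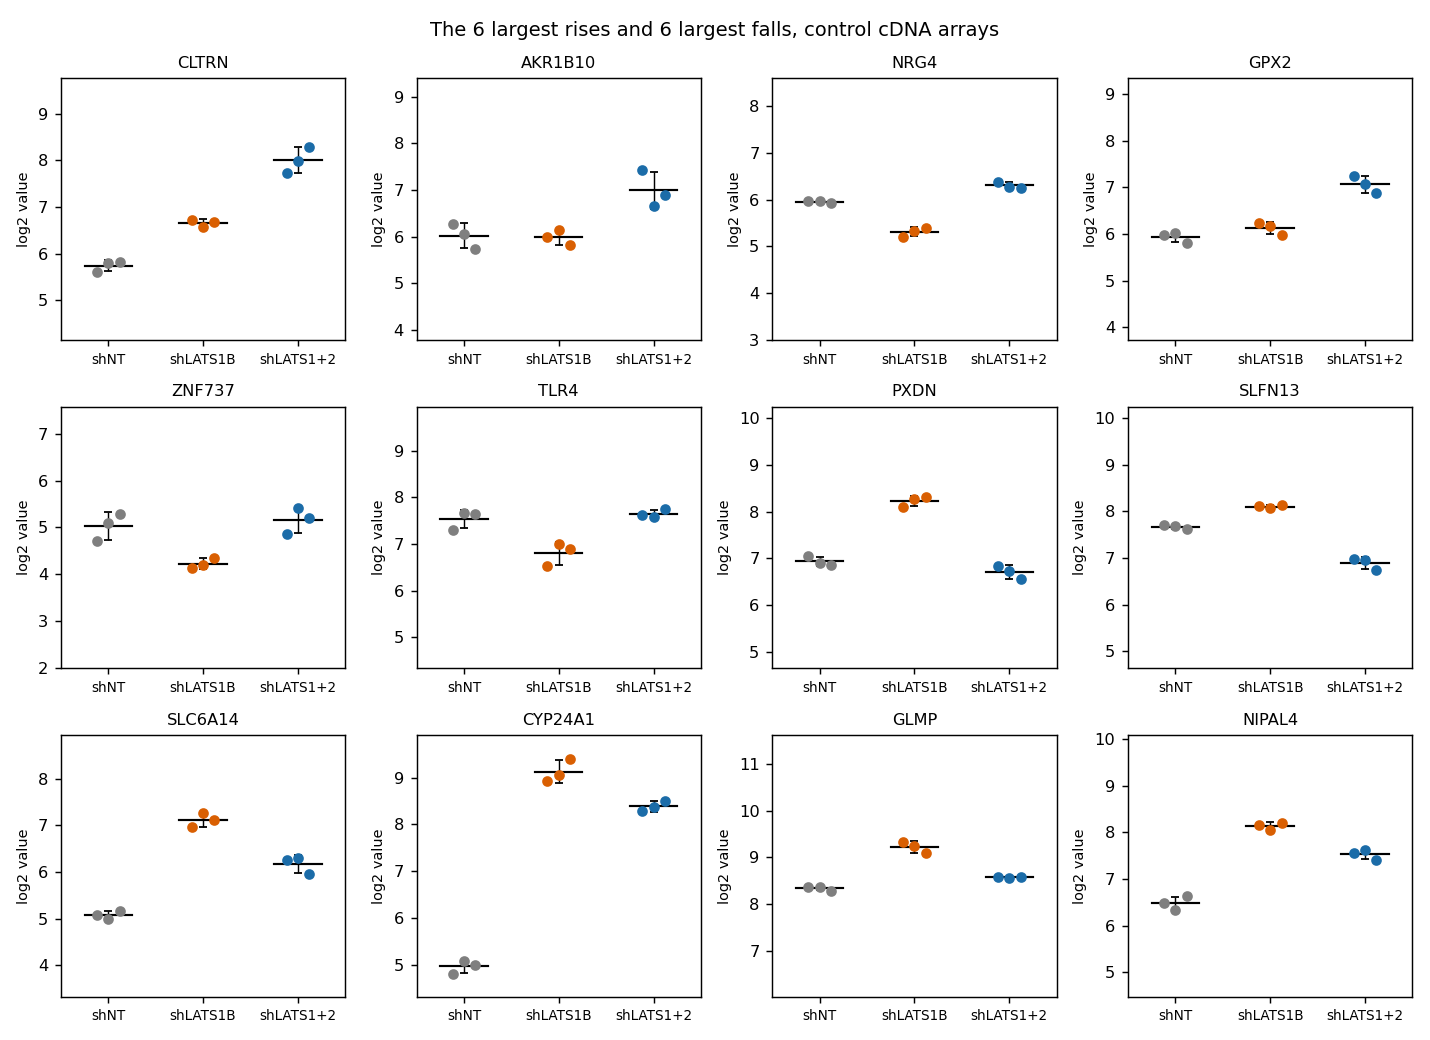
Log2 intensity (y axis) in each control cDNA array for the 6 largest rises and 6 largest falls; points are arrays, long lines group means and bars 1 SD (n = 3), and every panel spans the same number of log2 units. TLR4 shows shNT near shLATS1+2 with shLATS1B below, while PXDN shows shNT near shLATS1+2 with shLATS1B above.

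Single members of other lists were called, where 0.321% of all genes were called. CSF3, the granulocyte growth factor G-CSF and the 1 called gene of 31 chemokines and interleukins, read 9.81, 9.70 and 9.64 with shLATS1B, 9.08, 9.14 and 9.39 in the arrays labelled shLATS1+2 and 10.19, 10.07 and 10.32 with shNT. It fell by 0.51 (limma adjusted p = 0.0037), a call lost in fits of 6 or 9 arrays (largest adjusted p 0.0644). The immediate early factors FOS and EGR1 were the 2 called genes of 20 on the AP-1 list. FOS read 8.88, 8.89 and 8.86 against 8.54, 8.57 and 8.55, level with shNT at 8.54, 8.55 and 8.49, and fell by 0.32 (adjusted p = 0.017). EGR1 read 9.60, 9.64 and 9.60 against 9.25, 9.27 and 9.26, both below shNT at 10.20, 9.98 and 10.01, and fell by 0.35 (adjusted p = 0.017). Arrays within a group were close for both, but with any 1 of the 6 arrays left out neither passed (adjusted p up to 0.108 for FOS and 0.115 for EGR1).

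Of 26 luminal epithelial genes only EHF, an epithelial ETS factor, was called: it read 7.99, 7.86 and 7.72 with shLATS1B against 8.25, 8.36 and 8.23 (0.42, limma adjusted p = 0.015; up to 0.107 with 1 of the 6 arrays left out, the call ending without the second or the third shLATS1B array or the second labelled shLATS1+2). Of 32 mesenchymal and matrix genes CDH2, N-cadherin, was called: it read 8.49, 8.57 and 8.69 against 8.19, 8.22 and 8.07 (−0.42, adjusted p = 0.023; 0.15 without the third array labelled shLATS1+2, where it was −0.37). The CDH2 call was lost in 8 of 27 alternatives, among them without any 1 of these 6 arrays except the first shLATS1B array. LTBP1, which binds latent TGF-beta in the matrix, was the 1 called gene of 24 on the TGF-beta and BMP list. It read 8.41, 8.55 and 8.57 against 8.14, 8.07 and 7.86, far below shNT at 10.37, 10.19 and 10.16 (−0.49, adjusted p = 0.047), and kept its call in 9 of 27 alternatives; without the third array labelled shLATS1+2 the adjusted p was 0.29. No member of the 13 measured basal and myoepithelial genes, the 30 epidermal genes or the 22 adhesion and integrin genes was called. In that order the groups did not overlap for 7, 2 and 12 members, against 25.2% of all genes. Over all genes 0.321% were called, so the absence of a call says little about lists of this size. The members with the smallest p were LAMB3, a laminin chain, at −0.16 (adjusted p = 0.37), S100A8, a calcium-binding protein, at 0.44 (0.44; 0.26 without the third array labelled shLATS1+2), and ITGA3, an integrin subunit, at −0.24 (0.29).

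No gene of the Hippo pathway or of its target list was called, which at 0.321% of all genes called says little about lists of this size. Among 32 Hippo components differences ran from −0.25 (FAT1) to 0.17 (WWC1), the median was −0.05, and for all 32 the 95% interval lay inside a 1.5-fold change, as for 97.1% of all genes. The 26 YAP/TAZ target genes had a median of −0.02 against −0.0093 over all genes and 25 intervals inside 1.5-fold. The groups did not overlap for 6 of the 32 components and 8 of the 26 targets, against 25.2% of all genes. Differences were above 0 for 7 of the 32 and 10 of the 26, against 45.4% of all genes. CCN1, a matricellular YAP target, read 8.52, 8.52 and 8.54 with shLATS1B against 8.49, 8.47 and 8.63 in the arrays labelled shLATS1+2 (0.01). CCN2 read 8.36, 8.19 and 8.23 against 8.25, 8.32 and 8.30 (0.03), and AMOTL2, an angiomotin that binds YAP, 7.12, 7.08 and 7.04 against 7.11, 7.15 and 7.11 (0.05). All 3 overlapped between the groups. The nearest to the threshold was FOXF2, a forkhead factor, at −0.36 (limma adjusted p = 0.054), which passed in 6 of 27 alternatives. The TEAD core GGAATG, on either strand, was in the RefSeq window of 250 bases before to 50 after the start for 9 of the 48 called genes that have such a window (18.8%), against 16.7% of 27305 genes.

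Interferon-induced antiviral genes, which block viral replication after type I or III interferon, had a median difference of 0.09 over 36 measured members, with 29 above 0 (45.4% of all genes were) and none called, against 0.321% of all genes. IFIT1, which binds viral RNA, read 10.26, 10.21 and 9.92 with shLATS1B, 10.35, 10.55 and 10.84 in the arrays labelled shLATS1+2 and 5.14, 6.17 and 5.61 with shNT. IFI44 read 8.71, 8.59 and 8.49 against 8.87, 8.999 and 9.39. For both genes the knockdowns were far nearer to each other than to shNT, and the third array labelled shLATS1+2 was the highest of all. The differences were 0.45 for IFIT1 (limma adjusted p = 0.41), 0.49 for IFI44 (0.27) and 0.50 for XAF1 (0.13; 0.43 without the third array labelled shLATS1+2), all short of the threshold. Across the list the 95% interval lay inside 1.5-fold for 32 of 36 members. The groups did not overlap for 18 of the 36, against 25.2% of all genes. The 23 RNA sensors and interferon signalling genes had a median of 0.0096 and no call, as had the 16 measured antigen presentation genes; nearest to the threshold were STING1 (−0.15) and TAPBP (−0.25).

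Chemokines and interleukins had wider intervals, which lay inside 1.5-fold for 22 of 31. CCL20, which draws CCR6-bearing lymphocytes, read 6.20, 5.84 and 5.98 with shLATS1B, 6.53, 6.68 and 7.13 in the arrays labelled shLATS1+2 and 7.25, 7.53 and 7.68 with shNT, a difference of 0.77 between the knockdowns (limma adjusted p = 0.15). IL6 read 6.26, 5.87 and 6.03 against 6.42, 6.63 and 6.82, a difference of 0.57 (adjusted p = 0.071). The groups of both genes did not overlap, which was also so for 25.2% of all genes. CXCL10 overlapped, at 9.48, 9.31 and 8.85 against 9.42, 9.61 and 10.05 (0.48, adjusted p = 0.40).

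Growth and metabolism lists held no call: mitosis (24 genes, median 0.0067), DNA replication (24, −0.06), p53 targets (22, −0.04), hypoxia and glycolysis (22, −0.08), estrogen response (23, −0.08), growth factors (24, −0.11), and WNT and Notch (26, −0.07). Sterol and fatty acid synthesis genes (22) had a median of −0.13 and no call either. With 0.321% of all genes called, the absence of a call says little about lists of this size. FASN, fatty acid synthase, read 10.34, 10.45 and 10.49 with shLATS1B against 10.03, 10.05 and 9.74 in the arrays labelled shLATS1+2 (−0.49, limma adjusted p = 0.30), and SCD, which makes the first double bond, 11.98, 11.98 and 11.94 against 11.70, 11.68 and 11.58 (−0.31, adjusted p = 0.23). Neither overlapped and neither passed. Groups did not overlap for 15 of 22 sterol, 15 of 24 replication, 12 of 24 growth factor and 11 of 24 mitosis genes. The same held for 9 of 26 WNT and Notch, 8 of 22 p53, 7 of 23 estrogen and 7 of 22 hypoxia genes. Over all genes the share was 25.2%. The members nearest to the threshold were INSIG1 (−0.20) for sterols, UBE2C (0.13) for mitosis, CCNE2 (0.34) for replication, XPC (−0.25) for p53, NDRG1 (−0.38) for hypoxia, IGFBP4 (−0.43) for estrogen response, HBEGF (−0.15) for growth factors and HES1 (−0.24) for Notch. Of these, NDRG1 passed without the first array labelled shLATS1+2 (adjusted p = 0.037) and HES1 without the first ESR1 cDNA array (0.025).

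**Figure D5:**
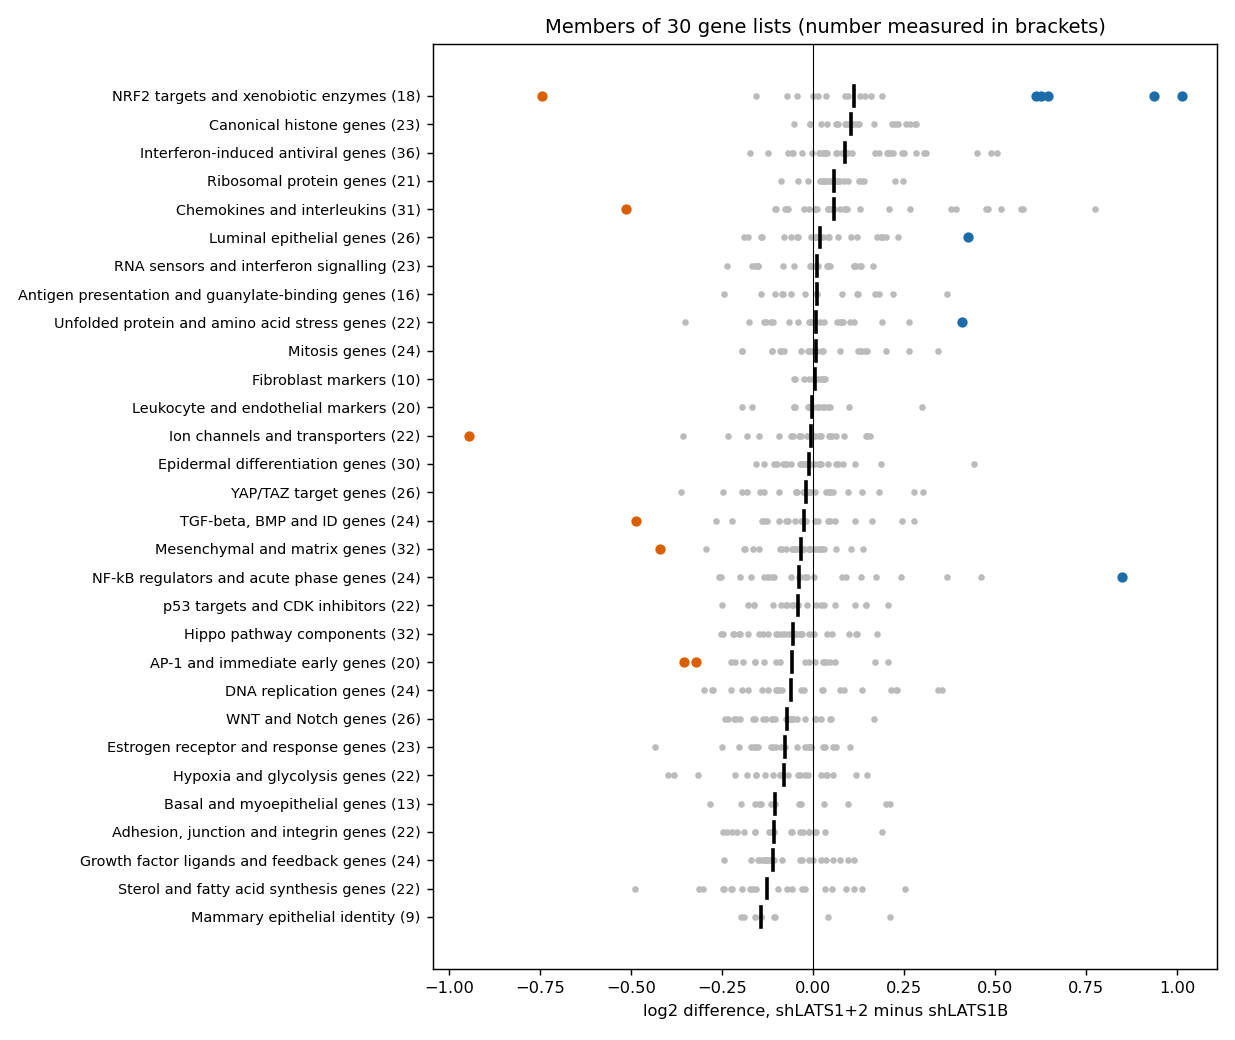
Difference of the arrays labelled shLATS1+2 from shLATS1B (log2, x axis) for each member of the 30 gene lists; black ticks are list medians, blue and orange points are genes called higher and lower, and grey points are not called. Medians lie between −0.14 and 0.11, and the NRF2 and xenobiotic enzyme list holds the most calls, 6.

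The cells read as mammary epithelium in both groups. Mean log2 intensity over 9 measured mammary epithelial identity genes was 11.04 to 11.07 with shLATS1B and 10.87 to 11.01 in the arrays labelled shLATS1+2, with a median difference of −0.14 (−0.08 without the third of these) and no call. Of the 9 genes 2 were above 0, against 45.4% of all genes, and the groups did not overlap for 6, against 25.2%. EPCAM read 11.27, 11.30 and 11.29 against 11.35, 11.35 and 11.29, and KRT5, a basal keratin that MCF10A makes, 12.35, 12.43 and 12.45 against 12.35, 12.32 and 12.13. The smallest p of that list was that of CDH3, P-cadherin, at −0.16 (limma adjusted p = 0.40). Fibroblast markers (10 genes, 6 under the brightness mark) averaged 5.069 to 5.077 against 5.047 to 5.084. Leukocyte and endothelial markers (20 genes, 13 under the mark) averaged 5.414 to 5.457 against 5.423 to 5.471. CD68, on the latter list, was bright in both groups, with means of 10.53 and 10.33. Neither list held a called gene, where 0.321% of all genes were called. Nearest to the threshold were COL1A1 (−0.05, or −0.036 without the third array labelled shLATS1+2) and PECAM1 (0.30). Histone genes averaged 9.165 to 9.201 against 9.220 to 9.459 and ribosomal protein genes 11.69 to 11.71 against 11.72 to 11.84, without a call, and their medians of 0.10 and 0.06 were 0.05 and 0.03 without the third array labelled shLATS1+2. On these 2 lists H2BC8 (0.25) and RPL26 (0.25) had the smallest p, and without that array they stood at 0.16 and 0.15. The part of both lists in the results above was not tested.

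Of the 59 called genes 34 kept their call without the third array labelled shLATS1+2. In all, 44 of the 59 were in none of the 30 lists. A further split left 27 outside the naming rule, whose single calls were not followed with arrays left out, so they may be less stable. Among these the rises were ZNF468 (0.58), ABCC2 (0.55), TMOD2 (0.54), RARRES1 (0.51), DENND2D (0.50), LIPH (0.46), PPFIBP2 (0.40), CUL4B (0.29), FTL (0.20) and KYNU (0.20). KYNU, kynureninase of tryptophan breakdown, read 11.42, 11.48 and 11.46 against 11.70, 11.62 and 11.64 (limma adjusted p = 0.043). The falls were TSPAN18 (−0.48), POGLUT3 (−0.48), WIPF1 (−0.44), NGFR (−0.43), PDGFD (−0.43), ARG2 (−0.42), TUB (−0.41), ACTMAP (−0.36), CHRNB1 (−0.33), FHIT (−0.32), SYT8 (−0.32), TDRD5 (−0.32), CREBL2 (−0.31), WIPI1 (−0.30), PGF (−0.29), ZNRF1 (−0.26) and PHLDA2 (−0.23). NGFR, the low-affinity neurotrophin receptor of basal and neural crest cells, read 7.38, 7.41 and 7.75 against 7.22, 6.95 and 7.07, both above shNT at 6.08, 6.04 and 6.17 (adjusted p = 0.033). ARG2, mitochondrial arginase, read 7.78, 7.63 and 7.82 against 7.36, 7.21 and 7.39 (adjusted p = 0.015), where the labelled double knockdown overlapped shNT at 7.38, 7.47 and 7.54.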

How the data were processed

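Total RNA of 18 samples was measured on Affymetrix whole-transcript arrays. The deposited table holds log2 intensities for 32321 probe sets, 1 column per array; affy, an R package, is named in the submitters' processing notes without a version; how background was corrected and arrays were normalized is not stated. Medians of the arrays lay between 5.494 and 5.619. Names came from the platform annotation (19158 with 1 symbol, 1388 with several, 11775 with none), and symbols were updated through RefSeq GRCh38.p14 (19128 matched). The brightest probe set by mean over all arrays stood for each of 18404 genes.

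One limma 3.58.1 model (R 4.3.3; 12 residual degrees of freedom, prior 3.94) with a mean per group was fitted to all 18 arrays, and 2-sided p-values were adjusted by Benjamini-Hochberg over 18404 genes; errors are standard errors. The fit was tested on simulated data. Genes named by rule were the targeted genes, the 12 largest rises and falls, called list members and, for lists without a call, the member with the smallest p; others named were chosen after their values were seen. Members and lists were chosen with earlier results of these data known. Alternatives were array subsets, the replicate block, scaling, brightness, probe-set choice and single arrays left out. The motif TGACNNNGC was chosen after the called genes were seen; it occurred in 20.8% of the 48 called genes with a RefSeq window and in 16.1% of all genes with one. The interferon-stimulated response element occurred in 8.3% and 4.4%. The number of arrays limits the precision.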

Additional observations from a re-analysis of the deposited data

Results flagged for a closer look

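Signal passed in probe sets that the comparison by gene does not use. In the fit over all 32321 probe sets, 3 of 13163 without a single gene symbol were called (0.0228%), of 49 called in all. Probe set 8072926, which has no gene in the annotation, read 11.08, 11.14 and 11.04 with shLATS1B and 10.72, 10.74 and 10.62 in the arrays labelled shLATS1+2, against 9.21, 9.27 and 9.28 with shNT (−0.39, limma adjusted p = 0.035). Probe set 7895618, also with no gene, read 4.75, 4.66 and 5.04 against 5.67, 5.28 and 5.55 (0.68, adjusted p = 0.024), and probe set 8001147, with more than 1 gene, differed by −0.44 (adjusted p = 0.042).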

How the results depend on the processing

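The 32 named called genes kept their direction in each of up to 27 alternatives that could be run for them, and 17 were called in each; ZNF737 and IL2RG, both among the 17, had 26, being left out where brighter genes alone were tested. Of the 32, 20 were called without each of the 6 arrays compared. The count of 59 called genes was 50 in the fit of the 6 arrays (36 shared), 50 with the 9 control-cDNA arrays, 60 with array medians centred, 54 after quantile normalization and 65 with trended, robust moderation. With single arrays left out it ranged from 33 to 110, from 16 to 54 for higher and from 16 to 56 for lower genes. Genes with the interval inside 1.5-fold ranged from 17387 to 18116 with single arrays left out, and numbered 12374 among brighter genes alone, which are fewer features, and 30370 over all probe sets, which are more. With single arrays left out, LATS2 between the knockdowns ranged from −0.087 to 0.0018, changing sign without the third array labelled shLATS1+2, and ESR1 from −0.027 to 0.080, changing sign without the third shLATS1B array; neither was called. LATS2 stood 0.088 to 0.19 above shNT in shLATS1B. Without the third array labelled shLATS1+2 the count was 37. The cause of these moves was not tested.

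With the replicate number as a block, 55 genes were called, 50 of them shared. Deviations of same-numbered arrays of the 2 groups correlated at −0.269, 0.0053 and −0.256, and those of differently numbered arrays at −0.161 to 0.295. Deviations from a mean of 3 arrays are tied to each other, so these values cannot decide whether arrays were handled together. The numbers were not used as pairs.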

Other observations

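The 5 NRF2-list genes that rose in the arrays labelled shLATS1+2 were also read in the arrays with shNT and YAP/TAZ, ESR1 or both cDNAs. Those arrays enter no difference given above, but they enter the shared estimate of spread and the principal component of all 18 arrays. GPX2 stood at 5.32 ± 0.095 (SD, n = 3) with YAP/TAZ cDNA, 5.48 ± 0.283 with ESR1 cDNA and 8.58 ± 0.144 with both. AKR1B10 stood at 5.77 ± 0.051, 5.38 ± 0.044 and 8.36 ± 0.051 in the same order, and AKR1C1 at 10.96 ± 0.070, 10.98 ± 0.090 and 12.15 ± 0.014. AKR1C2 stood at 11.25, 11.34 and 12.56 and AKR1C3 at 10.30, 10.31 and 11.42 on average. For each of these 5 genes the mean with both cDNAs was above that of the labelled double knockdown, and the means with a single cDNA were below it. Other genes that rose differed from this: TNIP3 averaged 6.54 with both cDNAs, below 7.03 in the arrays labelled shLATS1+2, CLTRN 8.57 with ESR1 cDNA, above 8.01, and TLR4 7.76 and 7.81 with a single cDNA, above 7.65.

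Genes that fell were read there too. SLC6A14 stood at 5.21 ± 0.197 with YAP/TAZ cDNA, 5.29 ± 0.117 with ESR1 cDNA and 9.56 ± 0.108 with both, and CYP24A1 at 5.04 ± 0.072, 4.93 ± 0.062 and 9.13 ± 0.074. PXDN was at 6.59 ± 0.068, 6.47 ± 0.078 and 6.87 ± 0.047, below the shLATS1B mean in all 3, and GMPR, at 7.31 ± 0.102, 8.26 ± 0.082 and 8.10 ± 0.108, was above the shLATS1B mean in all 3. These values were chosen after they were seen, and no test was made on them.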
